A study of Homo sapiens with 6 samples.

Results

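Lysosomal enzymes and membrane proteins were examined here as a set of 52 genes, of 18336 gene names in the deposited tables, in HUVECs, primary endothelial cells from the vein of the human umbilical cord. The members were chosen by name: cathepsins and other peptidases, glycosidases, sulfatases, lipid enzymes, acid phosphatases, lysosomal membrane proteins, progranulin, a mannose 6-phosphate receptor, and the transcription factors TFEB and TFE3. All 52 had a row, and 51 had at least 1 FPKM (a read level corrected for the size of the library and the length of the gene) in at least 3 libraries and were tested. The series holds 6 RNA-seq libraries, all from HUVECs from a commercial supplier that were transfected with a lipid reagent. In 3 libraries the cells had received miR-483, a microRNA, and in the other 3 they had received 8OH-G miR-483, the same microRNA carrying the oxidised base 8-hydroxyguanine. RNA was taken on day 2, 48 hours after transfection. Cells transfected with a scramble control were not analysed here. Each difference is given as 8OH-G miR-483 relative to miR-483, and a change due to one microRNA cannot be told apart from an opposite change due to the other. The comparison addresses which transcripts differ when the transfected microRNA carries the oxidised base. No source used here states that libraries are separate cultures, and the p-values then measure only the spread between these libraries, which may be technical.

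Lysosomes are acidic organelles in which hydrolases break down proteins, glycans, lipids and sulfated sugars delivered by endocytosis and autophagy. Most soluble hydrolases reach them by way of a mannose 6-phosphate tag that receptors in the Golgi bind, and the membrane is lined by heavily glycosylated proteins of the LAMP family. TFEB and TFE3, basic helix-loop-helix factors of the MiT/TFE family, bind an E-box in the promoters of many lysosomal genes and raise their transcription when they enter the nucleus. In endothelial cells, the tetraspanin CD63 also lies in Weibel-Palade bodies, the storage granules for von Willebrand factor.

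Over the 51 tested members, 19 were lower and 7 were higher with 8OH-G miR-483, and 25 did not pass the test (limma on log2(FPKM + 1), adjusted p of 0.05 over 12729 genes). Of all 12729 genes tested, 20.5% were lower and 34.9% were higher (55.3% in either direction), against 37.3% and 13.7% of the members. The median log2 fold change was -0.14 over the members and 0.09 over all genes. TFEB, TFE3, progranulin, the sulfatases ARSA and SGSH, CD68, cathepsin F and the acid phosphatase ACP5 were the members that fell by at least 0.5 on the log2 scale. Cathepsin S, beta-mannosidase and the mannose 6-phosphate receptor M6PR rose by at least that much. These 8 and 3 members compare with 9.85% of all genes lower and 17.8% higher by that rule.

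The scale of the values bears on these counts. Scaling the libraries by median ratios shifted the median of all genes by -0.10 and gave 28 members lower and 6 higher, beside 27.3% of all genes lower and 27.2% higher (54.5% in either direction). Quantile normalization shifted it by the same rounded amount and gave 24 lower and 5 higher, beside 28.0% and 27.0% (55.0% in either direction). These shares of all genes are also those to set beside the scaled counts of roles and lists below. All 19 lower calls and 5 of the 7 higher calls held under both; GLA lost its call under both, and ASAH1 lost its call under quantile normalization. Requiring a fold beyond 1.2 left 8 members lower and 4 higher, beside 9.29% and 17.7% of all genes (27.0% in either direction).

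**Figure D1:**
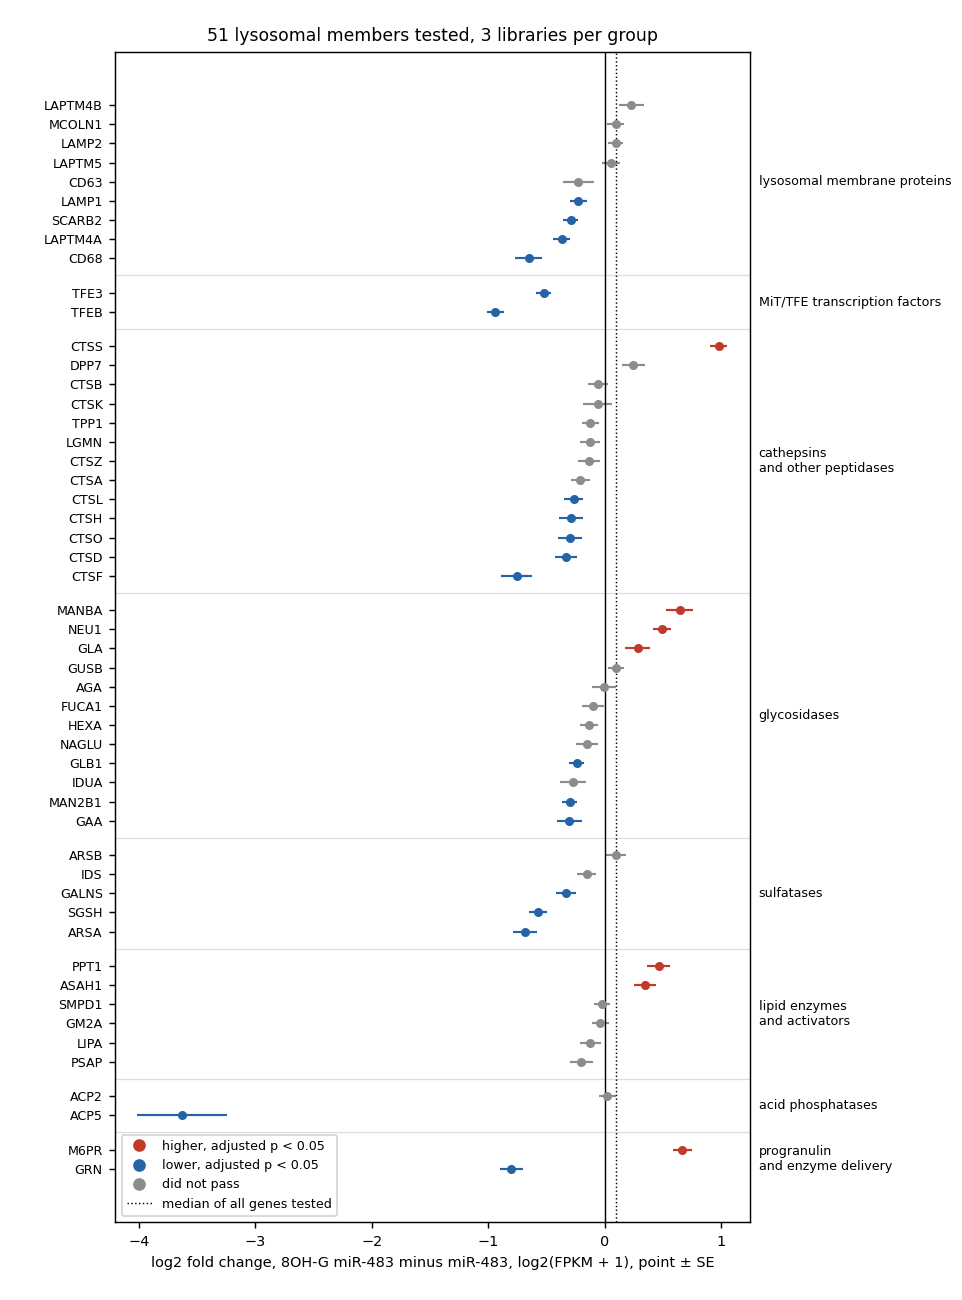
Log2 fold change of each of the 51 tested members (x axis, from log2(FPKM + 1), positive where 8OH-G miR-483 is higher), ordered by role, as a point with its standard error; colours mark the limma call and the dotted line the median of all genes tested. TFEB, TFE3, GRN, ARSA, SGSH, CD68, CTSF and above all ACP5 lie to the left, and CTSS, M6PR and MANBA to the right.

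The promoters of these genes were inspected for the letters CACGTG, the core of the E-box bound by TFEB and TFE3. The motif is its own reverse complement, so 1 search covers both strands. RefSeq promoter windows (GRCh38.p14, 250 bases before to 50 after each annotated start) matched 38 of the 52 members, with 57 windows. At least 1 window held the core for 14 of the 38 members (36.8%), against 12.9% of the tested genes with a window and 8.77% of all genes with one. The longer form TCACGTGA, which contains the core, was found for 6 members (15.8%, against 2.42% of tested genes), and the 10-base CLEAR element, which is TCACGTGA flanked by G and C, for GAA, GALNS and MCOLN1 (7.89%, against 0.939%). The 4 windows below are shown because they carry the motif in genes that went different ways: LAMP1 and GAA were lower, NEU1 was higher and MCOLN1 did not pass. Each is printed 5′ to 3′ on the gene's own strand, with each CACGTG in capitals.
LAMP1: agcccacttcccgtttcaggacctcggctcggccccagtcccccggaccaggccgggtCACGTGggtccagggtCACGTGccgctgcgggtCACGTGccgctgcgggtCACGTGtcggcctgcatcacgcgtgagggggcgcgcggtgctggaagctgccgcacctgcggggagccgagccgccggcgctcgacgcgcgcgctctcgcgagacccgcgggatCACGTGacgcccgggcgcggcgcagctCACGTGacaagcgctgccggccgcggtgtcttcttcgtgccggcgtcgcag
GAA: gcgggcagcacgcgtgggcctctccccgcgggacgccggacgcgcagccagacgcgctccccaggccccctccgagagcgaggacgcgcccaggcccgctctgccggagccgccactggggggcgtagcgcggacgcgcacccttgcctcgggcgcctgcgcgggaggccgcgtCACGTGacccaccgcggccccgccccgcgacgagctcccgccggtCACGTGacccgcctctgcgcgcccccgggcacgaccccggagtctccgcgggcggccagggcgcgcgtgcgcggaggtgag
MCOLN1: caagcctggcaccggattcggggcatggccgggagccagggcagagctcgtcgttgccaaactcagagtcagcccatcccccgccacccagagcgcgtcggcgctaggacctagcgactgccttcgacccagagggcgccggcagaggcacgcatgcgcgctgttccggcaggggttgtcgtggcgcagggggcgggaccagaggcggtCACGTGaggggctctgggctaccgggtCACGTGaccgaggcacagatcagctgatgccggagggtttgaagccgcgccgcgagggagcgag
NEU1: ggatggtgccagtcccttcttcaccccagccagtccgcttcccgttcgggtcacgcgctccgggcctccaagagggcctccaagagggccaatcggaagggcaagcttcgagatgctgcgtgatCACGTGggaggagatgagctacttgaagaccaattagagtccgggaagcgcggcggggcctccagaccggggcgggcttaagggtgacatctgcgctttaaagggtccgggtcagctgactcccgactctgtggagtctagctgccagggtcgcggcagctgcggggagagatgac

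The LAMP1 window (chr13:113296989-113297288, plus strand) held 6 copies of the core, starting at positions -192, -176, -159, -142, -28 and -1, where -1 is the last base before the annotated start. The GAA window (chr17:80101331-80101630, plus strand) held 2 copies, at -76 and -31, both within the 10-base element. MCOLN1 (chr19:7522374-7522673, plus strand) had 2 copies, at -41 and -14, of which the one at -14 lay within that element. NEU1 (chr6:31862772-31863071, minus strand) had 1 copy, at -126. Among members with a window, the core was found for 6 of the 16 called lower (LAMP1, CTSD, CTSF, GALNS, GAA and ACP5), for 2 of the 4 called higher (NEU1 and M6PR) and for 5 of the 17 not called (MCOLN1, CTSA, CD63, ARSB and DPP7). It was also found for the untested CLN3. Members of every class of call thus held it. A match is only a match of letters in this window.

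TFEB and TFE3 fell, while TFEC, a family member in the further lists, rose. TFEB stood at 4.35, 4.72 and 4.49 FPKM in the miR-483 libraries and at 1.78, 1.99 and 1.86 FPKM in the 8OH-G miR-483 libraries. No library of one group came near the other. The means of 4.52 ± 0.188 and 1.88 ± 0.106 FPKM (SD, n = 3 each) differ 2.40-fold. The log2 fold change was -0.94 (SE 0.0745, limma adjusted p = 1.73e-05). Here and below, log2 fold changes are those of log2(FPKM + 1), which for low genes are smaller than the fold of the means. TFE3 was more abundant, at 28.3, 28.0 and 30.2 FPKM with miR-483, and was 19.8, 19.1 and 20.3 FPKM with 8OH-G miR-483. The groups were again apart, with a difference of 1.46-fold and a log2 fold change of -0.52 (SE 0.0641, limma adjusted p = 0.000184). MITF, named here after its value was seen, rose from 0.987 ± 0.187 to 1.51 ± 0.183 FPKM (limma adjusted p = 0.0194), and TFEC from 3.65 ± 0.354 to 6.94 ± 1.21 FPKM (limma adjusted p = 0.00058). Both were also called higher after either scaling. MITF, however, reached 1 FPKM in 3 libraries only through the 8OH-G miR-483 group, where it was higher. These are transcript levels; the localisation and phosphorylation that set the activity of both factors were not measured.

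Of the 9 tested membrane proteins, 4 fell, 5 did not pass and none rose, beside 20.5% lower and 34.9% higher among all genes. LAMP1, the most familiar of the glycoproteins that line the lysosomal membrane, was at 154, 163 and 162 FPKM with miR-483. With 8OH-G miR-483 it was at 142, 140 and 126 FPKM, below all 3 of the other group by a modest margin. The means were 160 ± 5.12 and 136 ± 8.74 FPKM (SD, n = 3), 1.17-fold apart (log2 fold change -0.23, SE 0.0736, limma adjusted p = 0.0277). The LAMP1 call ended without replicate 2 or 3 of the miR-483 group, or without replicate 3 of the 8OH-G group, with adjusted p from 0.0738 to 0.0976 in limma. Its relative LAMP2, which also serves chaperone-mediated autophagy, was at 56.3, 53.0 and 52.2 FPKM against 58.4, 55.5 and 58.5 FPKM. The LAMP2 libraries overlapped between groups, and the log2 fold change of 0.09 (95% interval -0.05 to 0.24, limma adjusted p = 0.242) leaves room for a small change either way.

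CD68, a LAMP family protein best known from macrophages, fell from 12.1, 9.90 and 13.6 FPKM to 7.35, 7.79 and 6.31 FPKM. All 3 libraries with 8OH-G miR-483 were below the lowest with miR-483. The difference was 1.66-fold (log2 fold change -0.65, SE 0.117, limma adjusted p = 0.00158). SCARB2, the receptor that carries glucocerebrosidase to the lysosome, fell from 69.5 ± 0.750 to 56.6 ± 2.95 FPKM (limma adjusted p = 0.00473). LAPTM4A, a small lysosomal membrane protein, fell from 131 ± 6.18 to 101.1 ± 6.82 FPKM (limma adjusted p = 0.00317). The related LAPTM4B and LAPTM5 did not pass. MCOLN1, the lysosomal calcium channel mucolipin 1, was at 11.4, 11.3 and 12.1 FPKM against 13.3, 11.7 and 12.4 FPKM. Its groups overlapped (log2 fold change 0.09, 95% interval -0.07 to 0.26, limma adjusted p = 0.297).

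The tetraspanin CD63 was among the most abundant members, at 390.4, 460.6 and 421 FPKM with miR-483 and 391, 413 and 293 FPKM with 8OH-G miR-483. Only 8OH-G miR-483 replicate 3 lay clearly below the rest, and CD63 did not pass (limma adjusted p = 0.180). CLN3, a membrane protein mutated in juvenile Batten disease, was the untested member. Its name stands on 2 rows, which in miR-483 replicate 1 held 0.318 and 17.0 FPKM and in each other library held the same value. Taking the higher value, the libraries read 17.0, 0.158 and 0 FPKM with miR-483 and 0.0378, 2.43 and 0.376 FPKM with 8OH-G miR-483, so no level can be given for CLN3.

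Of the 13 cathepsins and other peptidases, 5 fell, 1 rose and 7 did not pass (38.5% lower and 7.69% higher, beside 20.5% and 34.9% of all genes). After median-ratio scaling 9 were lower, with CTSA, CTSZ, TPP1 and LGMN added, and after quantile normalization 6, with CTSA added. Cathepsin S, an elastin-degrading cysteine protease that also trims the invariant chain of antigen presentation, was the peptidase that rose. CTSS was at 2.40, 2.15 and 2.21 FPKM with miR-483 and at 5.57, 5.38 and 5.28 FPKM with 8OH-G miR-483. Replicates lay close together and the groups far apart. CTSS rose 2.40-fold (log2 fold change 0.98, SE 0.0724, limma adjusted p = 1.18e-05).

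Cathepsin F, a cysteine protease, fell from 6.76, 7.87 and 6.81 FPKM to 3.95, 4.73 and 2.93 FPKM. The 2 groups of CTSF values did not overlap, and the difference was 1.85-fold (log2 fold change -0.76, SE 0.134, limma adjusted p = 0.00148). Cathepsin D, the main aspartic protease of lysosomes, fell from 137, 156 and 163 FPKM to 125, 126 and 109.8 FPKM. CTSD was 1.26-fold lower (log2 fold change -0.33, SE 0.0913, limma adjusted p = 0.0139), and without miR-483 replicate 3 its adjusted p was 0.0619. Cathepsin L, a cysteine endopeptidase, read 69.9, 82.9 and 76.5 FPKM and then 59.8, 67.1 and 63.1 FPKM, a narrow gap. CTSL was 1.21-fold lower (log2 fold change -0.26, SE 0.0816, limma adjusted p = 0.0228). That call ended without replicate 2 or 3 of the miR-483 group, and without replicate 1 or 3 of the 8OH-G group (adjusted p 0.0503 to 0.0836), and 6 pseudogenes of CTSL in the GENCODE 29 annotation could share its reads.

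Cathepsin B, the most abundant peptidase, did not pass. CTSB was at 442, 464 and 476 FPKM with miR-483 and 447, 479 and 406 FPKM with 8OH-G miR-483, with overlapping groups. The interval for its log2 fold change ran from -0.25 to 0.13. Cathepsins H and O, both near 1 FPKM, passed narrowly at 1.74 against 1.252 FPKM (limma adjusted p = 0.0436) and 1.83 against 1.29 FPKM (limma adjusted p = 0.0365). The CTSH call held only in the 1-library-out fit without replicate 3 of the 8OH-G group (limma adjusted p 0.0687 to 0.135 in the other 5), and the CTSO call only in that without replicate 3 of the miR-483 group (0.0504 to 0.112 in the other 5). The name CTSO stands on 2 rows, which held 0 and 1.86 FPKM in miR-483 replicate 1 and equal values elsewhere. The higher was used. CTSA, the protective protein that stabilises NEU1 and GLB1, was lower in all 3 libraries, at 91.9 ± 4.70 against 79.5 ± 6.49 FPKM, and just missed the threshold (limma adjusted p = 0.0531, and 0.0456 without replicate 1 of the 8OH-G group). CTSK, CTSZ, the tripeptidyl peptidase TPP1, the asparaginyl endopeptidase LGMN and the dipeptidyl peptidase DPP7 did not pass either on the deposited scale. DPP7 was at 42.9 ± 1.08 against 51.4 ± 6.90 FPKM.

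**Figure D2:**
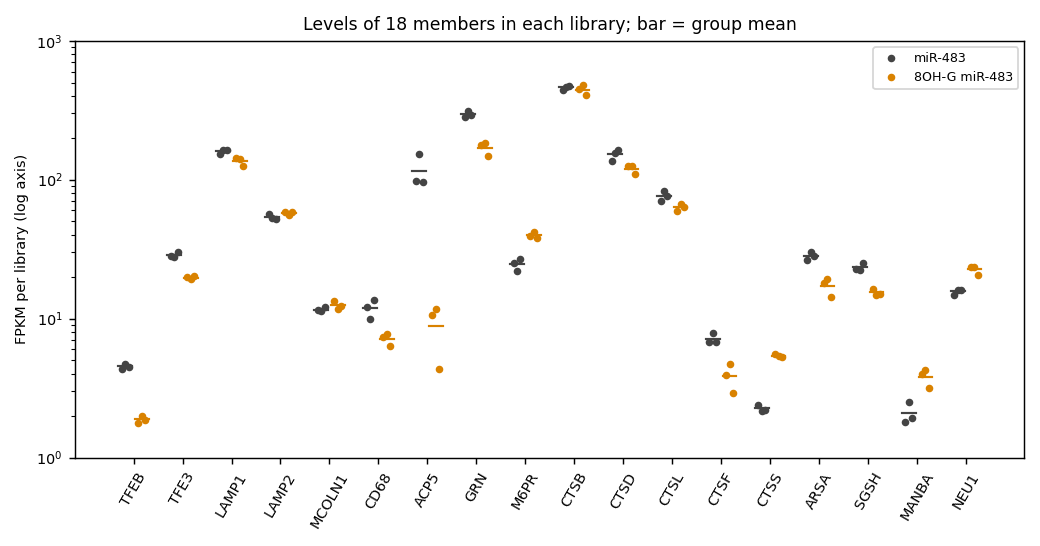
FPKM of 18 members in each of the 6 libraries (log axis), miR-483 and 8OH-G miR-483 side by side, points for libraries and bars for group means. The 3 points of each group are apart from those of the other for TFEB, TFE3, GRN, CTSS and ACP5, and they overlap for LAMP2, CTSB and MCOLN1.

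Of the 12 glycosidases and related enzymes, 3 fell, 3 rose and 6 did not pass on the deposited scale. Among all genes 20.5% were lower and 34.9% higher on that scale. After median-ratio scaling 6 were lower and 2 higher, with HEXA, IDUA and NAGLU added to the lower calls, and after quantile normalization 5 were lower and 2 higher. Beta-mannosidase, which removes the last mannose from N-glycan cores, rose from 1.81, 2.51 and 1.93 FPKM to 4.01, 4.25 and 3.18 FPKM. The MANBA groups did not overlap and differed 1.83-fold (log2 fold change 0.64, SE 0.12, limma adjusted p = 0.00194). MANBA shares 1138 exon bases on the same strand with the pseudogene LRRC37A15P, whose part in its value was not tested. The sialidase NEU1 read 14.9, 16.1 and 16.2 FPKM and then 23.6, 23.6 and 20.6 FPKM. All 3 libraries with 8OH-G miR-483 lay above the others, 1.44-fold on average (log2 fold change 0.49, SE 0.0764, limma adjusted p = 0.0007). The name NEU1 stands on 8 rows, of which 7 were 0 in miR-483 replicate 1 while all rows held 1 value in every other library. Alpha-galactosidase A, the Fabry disease enzyme, was at 13.6 ± 1.87 against 16.7 ± 1.41 FPKM. GLA passed narrowly (limma adjusted p = 0.0493) and not after median-ratio scaling (adjusted p = 0.183). Its call also ended without replicate 1 or 2 of the miR-483 group and without replicate 1 or 3 of the 8OH-G group (0.0646 to 0.147).

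The 3 glycosidases that fell did so by modest amounts. GLB1, the beta-galactosidase used as a senescence stain, went from 32.4 ± 1.01 to 27.3 ± 1.31 FPKM (limma adjusted p = 0.0132). The lysosomal alpha-mannosidase MAN2B1 went from 22.7 ± 0.337 to 18.3 ± 1.10 FPKM (limma adjusted p = 0.00503). The acid alpha-glucosidase GAA, which degrades glycogen, was at 17.5, 17.3 and 18.4 FPKM and then at 15.0, 16.2 and 11.7 FPKM. GAA was lowest in 8OH-G miR-483 replicate 3, and its call (limma adjusted p = 0.0417) ended in every 1-library-out fit except that without replicate 2 of the 8OH-G group (0.0602 to 0.115). GLB1 lost its call without miR-483 replicate 3 (adjusted p = 0.0595). GUSB, HEXA, IDUA, NAGLU, FUCA1 and AGA did not pass, though IDUA was called lower without replicate 1 of the 8OH-G group (limma adjusted p = 0.00352).

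The sulfatases, which remove sulfate from glycolipids and glycosaminoglycans, had 3 of 5 members lower and none higher. Among all genes 20.5% were lower and 34.9% higher. Arylsulfatase A, which acts on sulfatide, fell from 26.3, 30.1 and 28.0 FPKM to 18.1, 19.1 and 14.4 FPKM. ARSA was thus 1.63-fold lower with no overlap between groups (log2 fold change -0.68, SE 0.107, limma adjusted p = 0.000733). The heparan sulfatase SGSH fell from 22.9, 22.4 and 25.2 FPKM to 16.4, 14.8 and 15.1 FPKM, again with no overlap. SGSH was 1.52-fold lower (log2 fold change -0.57, SE 0.0736, limma adjusted p = 0.000244). GALNS, which acts on keratan and chondroitin sulfate, fell from 13.7 ± 0.745 to 10.7 ± 1.18 FPKM (limma adjusted p = 0.0118). ARSB and IDS did not pass, though IDS was called lower after either scaling. The name IDS stands on 2 rows, which held 2.76 and 21.1 FPKM in miR-483 replicate 1 and equal values elsewhere. The higher was used.

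The 6 lipid enzymes and activators had 2 members higher, none lower and 4 that did not pass, beside 34.9% higher and 20.5% lower among all genes. After median-ratio scaling PSAP was called lower, and after quantile normalization LIPA was. PPT1, a thioesterase that removes palmitate from proteins, rose from 40.5, 47.2 and 47.7 FPKM to 68.3, 55.9 and 63.8 FPKM (limma adjusted p = 0.00345). The PPT1 groups were apart and differed 1.39-fold. PPT1 shares 1189 exon bases on the opposite strand with CAP1, which rose from 105 ± 2.31 to 137 ± 6.496 FPKM; whether counting used strand is not stated, and the part of CAP1 reads in the PPT1 value was not tested. ASAH1, acid ceramidase, rose from 5.16 ± 0.411 to 6.85 ± 0.813 FPKM (limma adjusted p = 0.0134). Prosaposin, the precursor of the sphingolipid activator proteins and the most abundant member, was at 506, 556 and 541 FPKM and then at 481, 509 and 409.7 FPKM. PSAP groups overlapped and the gene did not pass (limma adjusted p = 0.108, and 0.0465 without replicate 2 of the 8OH-G group). After median-ratio scaling the PSAP log2 fold change was -0.31 and it was called lower (limma adjusted p = 0.0191). GM2A, SMPD1 and LIPA did not pass.

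ACP5, tartrate-resistant acid phosphatase, had the largest fold of any member. It stood at 97.4, 154 and 96.6 FPKM with miR-483 and at 10.6, 11.6 and 4.36 FPKM with 8OH-G miR-483. Every miR-483 library was far above the highest of the other group. ACP5 was 13.1-fold lower (log2 fold change -3.63, SE 0.384, limma adjusted p = 0.000582), whereas the other acid phosphatase, ACP2, was at 15.9 ± 1.42 and 16.1 ± 0.356 FPKM and did not pass.

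Progranulin, a secreted and lysosomal precursor of the granulins, was the most abundant member past 0.5 on the log2 scale. GRN fell from 282, 311 and 293 FPKM to 179, 184 and 147 FPKM, with no overlap. The difference was 1.74-fold (log2 fold change -0.80, SE 0.098, limma adjusted p = 0.000183). M6PR, the cation-dependent receptor that carries tagged hydrolases from the Golgi, rose from 25.1, 22.2 and 26.8 FPKM to 39.3, 42.0 and 37.8 FPKM. Its groups were well apart, 1.61-fold on average (log2 fold change 0.67, SE 0.0835, limma adjusted p = 0.000212). M6PR shares 1105 exon bases on the opposite strand with PHC1, which was at 7.71 ± 0.561 and 7.46 ± 0.771 FPKM and did not pass.

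The members differed widely in level. The 10 highest by mean FPKM (PSAP, CTSB, CD63, GRN, LAMP1, CTSZ, CTSD, LAPTM4A, CTSA and TPP1) held 71.9% of the summed FPKM of the tested members with miR-483 and 71.6% with 8OH-G miR-483. Of these 10, 4 fell and none rose, beside 25.4% lower and 28.98% higher among the 873 tested genes of at least 73.0 FPKM. The summed level was 3260, 3584 and 3460 FPKM with miR-483 and 3012, 3108 and 2628 FPKM with 8OH-G miR-483. The sums of the 2 groups did not overlap and were 1.18-fold apart, a description of the set with no test. In bulk RNA, fewer cells with a transcript and less transcript per cell cannot be told apart.

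One library stood low for these genes. 8OH-G miR-483 replicate 3 was the lowest of its group for 39 of the 51 members (76.5%), against 37.1% of all tested genes. To a smaller extent, miR-483 replicate 1 was the lowest of its own group for 27 members (52.9%, against 39.9% of all tested genes). Without 8OH-G miR-483 replicate 3, 15 members were lower and 8 higher, and their median log2 fold change was -0.07. Fewer members were lower without miR-483 replicate 2 (14) or replicate 3 (13), so losing lower calls was not particular to 1 library. Shares of all genes called in these fits are not given here. DPP7 (limma adjusted p = 0.00317) and LAPTM4B (limma adjusted p = 0.0232) passed as higher without 8OH-G miR-483 replicate 3. Over all tested genes, the Pearson r of log2 values was 0.989 to 0.993 within groups, against 0.931 to 0.951 between groups.

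**Figure D3:**
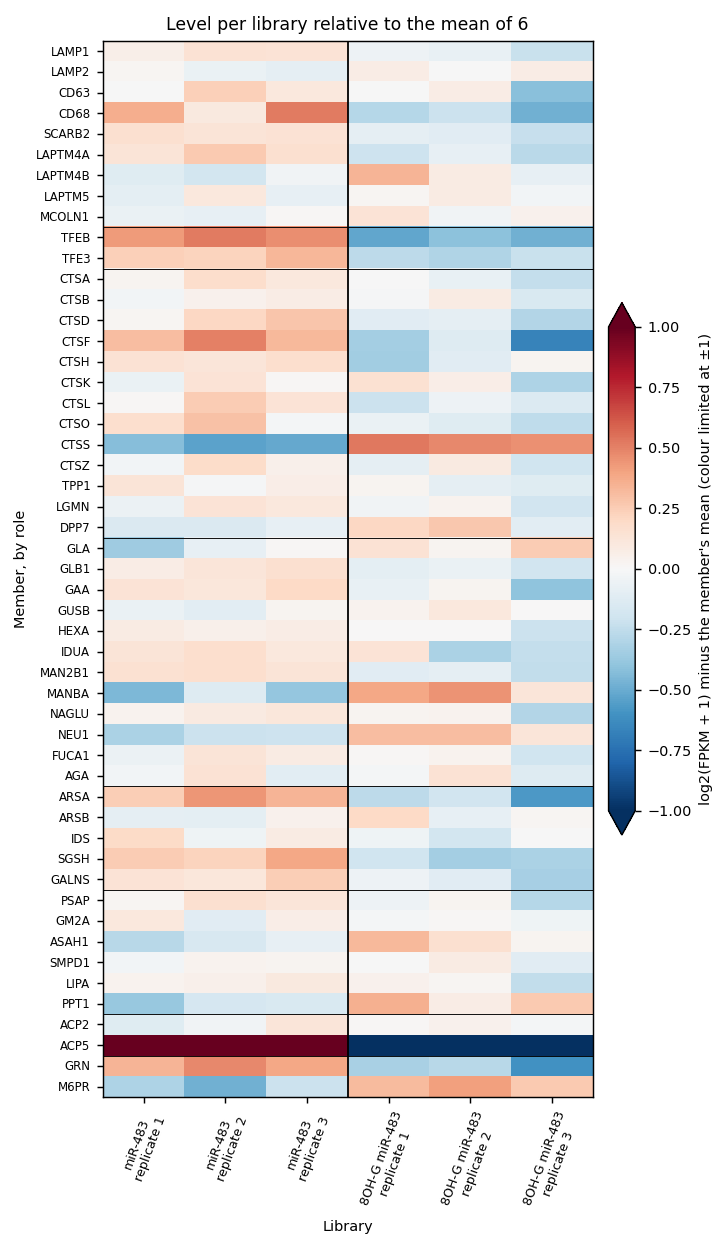
Heat map of the 51 tested members (rows, by role) in the 6 libraries (columns), coloured by log2(FPKM + 1) minus the member's mean over the libraries and limited at 1 either way. The first 3 columns are mostly above the mean for members that fell, and the last column, 8OH-G miR-483 replicate 3, is the lowest of its group for 39 members.

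The label of the cells was checked on 10 endothelial markers, all with a row and all tested. Their summed level was 2130.5 to 2160.5 FPKM with miR-483 and 1342 to 1584 FPKM with 8OH-G miR-483. Of the 10, 5 fell (PECAM1, CDH5, VWF, TEK and TIE1), beside 20.5% of all genes. Of 13 macrophage and leukocyte markers, 2 had a row and summed to 4.58 to 4.92 FPKM with miR-483 and to 0.599 to 0.673 FPKM with 8OH-G miR-483, with LYZ at 4.03 ± 0.339 and 0.109 ± 0.0955 FPKM. Of 8 osteoclast markers, 2 had a row, at 58.7 to 67.3 and 57.9 to 60.2 FPKM in sum, nearly all of it ITGB3, which endothelial cells also express. The other, TNFRSF11A, the receptor for the osteoclast factor RANKL, fell from 2.42 ± 0.335 to 1.64 ± 0.167 FPKM (limma adjusted p = 0.012), and was called lower after either scaling too. The other markers of those lists were not analysed here. CD68, CTSS, GRN and ACP5 are abundant in macrophages, and ACP5 in osteoclasts; the part of such cells in their values was not tested. Mural and fibroblast markers had 7 of 9 with a row, led by RGS5 at 712 ± 114 and 890 ± 109 FPKM. RGS5 did not pass on the deposited scale (limma adjusted p = 0.0622) but was called higher after quantile normalization (0.0451). The others were far lower. ACTA2 (1.85 and 1.82 FPKM) and TAGLN (2.49 and 2.46 FPKM) did not pass, and COL3A1 fell from 2.33 ± 0.0651 to 1.26 ± 0.0851 FPKM (limma adjusted p = 0.00033). DCN, PDGFRA and LUM were under 0.5 FPKM on average in both groups. Epithelial markers had 3 of 5 with a row and summed to 71.0 to 81.6 FPKM with miR-483 and 127 to 144 FPKM with 8OH-G miR-483. Of these KRT18 rose from 61.1 ± 3.76 to 120.5 ± 7.83 FPKM (limma adjusted p = 1.87e-05), and KRT8 and KRT19 did not pass. Erythroid markers were not analysed here.

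Beyond the members, 135 further lysosome and autophagy genes in 6 lists were tested, with a median log2 fold change of 0.01. Of these 40 were higher and 40 lower (29.6% each way, beside 34.9% higher and 20.5% lower among all genes). With median-ratio scaling these counts were 22 and 51, beside 27.2% higher and 27.3% lower among all genes. With quantile normalized values they were 24 and 52, beside 27.0% and 28.0%. The V-ATPase, the proton pump that acidifies the lysosome, had 7 of 16 subunits higher and 3 lower (43.8% and 18.8%, beside 34.9% and 20.5% of all genes), and 4 higher and 3 lower after either scaling. ATP6V1D fell from 96.7 ± 3.01 to 55.4 ± 3.59 FPKM, while ATP6V1B2 rose from 22.4 ± 0.718 to 32.5 ± 3.65 FPKM and ATP6V0C, of the membrane ring, from 134 ± 5.36 to 171 ± 10.4 FPKM. Subunits of the same pump thus differed in direction.

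Of 20 other hydrolases, 5 were higher and 7 lower, beside 34.9% higher and 20.5% lower among all genes. After median-ratio scaling 2 were higher and 9 lower, and after quantile normalization 3 and 11. HYAL2, a hyaluronidase anchored at the cell surface, fell from 348 ± 25.8 to 156 ± 13.0 FPKM. HYAL3 fell from 8.45 ± 0.769 to 4.12 ± 0.288 FPKM, and the dipeptidyl peptidase cathepsin C (CTSC), which activates granule proteases, rose from 47.1 ± 3.71 to 89.5 ± 2.88 FPKM. In the mannose 6-phosphate and sorting list, 5 of 18 were higher and 2 lower (27.8% and 11.1%, beside 34.9% and 20.5% of all genes). CLN6, which helps newly made enzymes leave the endoplasmic reticulum, rose from 5.86 ± 0.567 to 16.6 ± 0.485 FPKM, and the retromer subunit VPS26A from 27.5 ± 1.59 to 44.8 ± 10.4 FPKM. The Golgi sorting adaptor GGA3 fell from 21.9 ± 0.526 to 16.2 ± 0.894 FPKM. The list's counts were 3 higher and 4 lower after either scaling.

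Of 20 other lysosomal membrane transporters and proteins, 5 were higher and 9 lower, beside 34.9% higher and 20.5% lower among all genes. After either scaling 4 were higher and 11 lower. The sialic acid exporter SLC17A5 fell from 13.5 ± 0.602 to 6.04 ± 0.491 FPKM and SIDT2, an RNA transporter of the lysosomal membrane, from 8.14 ± 0.720 to 5.11 ± 0.1702 FPKM. TMEM192, a protein of the same membrane, rose from 2.60 ± 0.440 to 5.02 ± 0.265 FPKM. Among 23 genes of mTORC1 and TFEB control at the lysosome, 10 were higher and 2 lower (43.5% and 8.70%, beside 34.9% and 20.5% of all genes). The counts were 7 and 4 with median-ratio scaling and 8 and 3 with quantile normalization. TSC2, an inhibitor of mTORC1, fell from 38.4 ± 1.248 to 22.6 ± 1.19 FPKM. The mTOR partner MLST8 rose from 18.4 ± 1.52 to 26.8 ± 1.54 FPKM. TFEC and MITF, given above beside TFEB, were among the 10.

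Of 38 autophagy genes, 8 were higher and 17 lower (21.1% and 44.7%, beside 34.9% and 20.5% of all genes). After either scaling 2 were higher and 20 lower. ATG9B, a lipid scramblase of the autophagosome pathway, fell from 4.28 ± 0.777 to 0.905 ± 0.245 FPKM. With 8OH-G miR-483 it read 0.852, 0.691 and 1.17 FPKM. ATG9B thus reached 1 FPKM in 3 libraries only through the miR-483 group, where it was higher. WIPI1, which binds phosphoinositides on forming autophagosomes, fell from 45.4 ± 3.01 to 17.9 ± 3.01 FPKM. RAB7A, the GTPase of late endosomes, rose from 101.4 ± 2.74 to 137 ± 2.69 FPKM. Each gene named from these lists passed limma's test, with adjusted p of at most 0.00551 except for MITF.

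**Figure D4:**
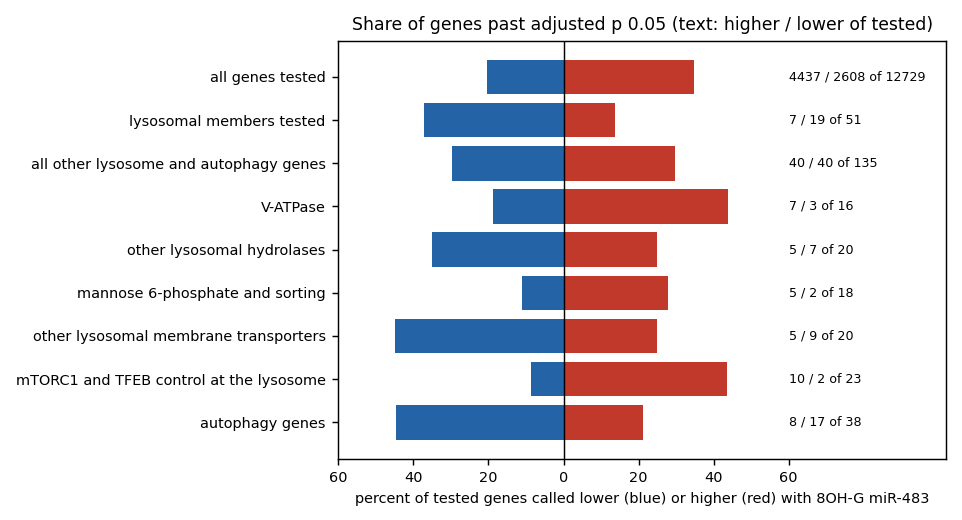
Percent of tested genes called lower (to the left) or higher (to the right) with 8OH-G miR-483 for all genes, the lysosomal members, the 6 further lists together and each of those lists, with the counts as text. The members show 37.3% lower and 13.7% higher, whereas all genes show 20.5% and 34.9%.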

How the data were processed

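Values were read from 6 deposited tables, 1 per library. Per the submitters' processing notes, the authors used hg19 and the tools STAR, HTSeq, cutadapt and DESeq2, in an order not given there. The unit is not given in the sources used here and was inferred to be FPKM as deposited by the authors, since column totals (1396537 to 1687283) exceed those of TPM or CPM; mitochondrial rows held 71.3% to 76.6%. Whole reads could not be recovered, so depth is unknown and precision is the SD or SE over libraries.

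A name on several rows (748 names, 4 of them members) took its highest value per library. Genes reaching 1 FPKM in 3 or more libraries were fitted on log2(FPKM + 1) with limma 3.58.1 in R 4.3.3 (trend, robust, group only), with Benjamini-Hochberg adjustment over all genes; fold changes on this scale understate those of low genes, and folds are ratios of mean FPKM. The fit was tested on simulated data in which far fewer genes changed than the 55.3% called here. That test does not cover a change of this extent. Full values are given for members past adjusted p 0.05 with a log2 fold change of at least 0.5, and for TFEB, TFE3, MCOLN1, LAMP1, LAMP2, CTSB, CTSD and CTSL; CD63, CLN3, NEU1, GAA, PSAP and PPT1 were added after their values were seen. From each further list, the largest rise and fall and the next in the commoner direction are named. Members and lists were chosen with earlier results of these data known. Gene overlaps and pseudogenes come from GENCODE 29. Further members share exon bases with annotated genes, such as CD68 (1789 with AC016876.2) and CTSD (1304 with AC068580.4), both on the same strand. The part of those genes in the member values was not tested. Alternatives covered the pseudocount, low filter, scaling, repeated names, variance model, fold threshold, replicate block and each library left out.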

Additional observations from a re-analysis of the deposited data

How the results depend on the processing

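No called member changed sign under any alternative run. A pseudocount of 0.1, no low filter, a minimum of 5 FPKM, variance shrinkage without trend and robust weighting, or leaving out repeated names gave 6 members higher each and 17 to 19 lower. Shares of all genes called are not given here for these fits or for the replicate block below. A required fold of 1.2 reduced the member calls to 4 higher and 8 lower and those of the further lists to 10 and 16. Median-ratio scaling moved the members' median log2 fold change from -0.14 to -0.25 and quantile normalization to -0.23. The further lists had 22 and 24 genes higher under these scalings. The cause was not tested.

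Leaving out 1 library at a time gave 6 to 8 members higher and 13 to 18 lower. Shares of all genes called in these smaller fits are not given here, so the spread of counts is not read as particular to the members. The median ranged from -0.178 to -0.0705, the latter without 8OH-G miR-483 replicate 3. In the further lists 26 (without miR-483 replicate 3) to 35 genes were higher. The summed FPKM ratio stayed between 0.786 and 0.891 over its alternatives. The share of member windows with the motif was 26.3% for CACGTG, 12.3% for TCACGTGA and 5.26% for the 10-base element.

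The replicate numbers share only a label: deviations of same-numbered libraries correlated at 0.0171, 0.332 and 0.0118, and only number 2 correlated best with its own. With the replicate block, 7 members were higher and 20 lower (CTSA gained a call), their median was -0.14, and the further lists had 40 and 41. The planned search for miR-483 seed matches was not run. Unknown depth limits what can be said of members near 1 FPKM, such as CTSH and CTSO.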
